A study of Mus musculus with 8 samples.

Results

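Loss of Ezh1 in acute myeloid leukaemia cells that keep Ezh2 is described here from 4 of the 8 RNA sequencing libraries of a mouse study. The members are the 2 libraries labelled Ezh1-/- Ezh2+/+ and the 2 labelled Ezh1+/+ Ezh2+/+, all 4 labelled as treated with corn oil, in which the tamoxifen of the other 4 libraries was dissolved. They are called Ezh1-null oil and Ezh1-present oil. The series design describes the Ezh2 allele of the oil cells as flox/flox, so both groups carry a floxed allele that tamoxifen would delete, and names the cells c-kit+. The tamoxifen groups are labelled Ezh1-/- Ezh2-/- (Ezh1-null tamoxifen) and Ezh1+/+ Ezh2-/- (Ezh1-present tamoxifen), with 2 libraries each. Their tamoxifen was given at 10 mg per kg per day in 5 doses. The mice were C57BL/6, the cells came from bone marrow of the femur and tibia, and the day label is 7 after treatment in all 8 libraries. The sample titles begin with Moz. The fusion gene, the Cre driver, the age of the mice and the number of mice or leukaemias behind a library are not given in the labels, so genotype and leukaemia cannot be told apart, and the p-values cover only the spread from library to library, which may be technical.

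Polycomb repressive complex 2 (PRC2) uses either Ezh1 or Ezh2 as its histone methyltransferase. It also needs Suz12 and Eed, and it trimethylates lysine 27 of histone H3 at silent developmental and lineage genes. Ezh2 is the more active enzyme in dividing cells, whereas Ezh1 is also found in cells that divide rarely and has a known role in blood stem cells. The comparison of the oil groups asks what the absence of Ezh1 changes while Ezh2 is still there.

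The values are log2 normalized values centred on the median of a gene over the 8 libraries, so 0 is that median, and a level can be given only where a library lies at the floor. Of 31574 rows, 18051 had at least 2 libraries above the floor and were fitted with limma over all 8 libraries, and calls were made at an adjusted p (Benjamini-Hochberg) under 0.05. Differences are log2 values of Ezh1-null oil minus Ezh1-present oil ± the standard error of the fit, with 2 libraries a group. The median SD within a group was 0.117 in Ezh1-null oil and 0.107 to 0.128 over the other 3 groups. Both Ezh1-null oil libraries were the shallowest, with 1 read pair worth 2.48 and 2.29 normalized units, against 1.78 and 1.75 in Ezh1-present oil. The Y-linked genes Eif2s3y and Ddx3y stood above the floor in Ezh1-present oil replicate 1 alone, at 6.00 and 3.75 read pairs.

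The stefin A genes of chromosome 16, which encode small inhibitors of cysteine proteases, hold some of the largest rises described here, and their start sites are shown because the copies resemble each other. The windows cover the 250 bases before the RefSeq start of 4 copies (GRCm38.p6, the assembly also called mm10), and the capitals mark the 15-base run ATTATTGGCACAGAG, the longest that all 4 windows share.
Stfa2, chr16:36408364-36408613, minus strand: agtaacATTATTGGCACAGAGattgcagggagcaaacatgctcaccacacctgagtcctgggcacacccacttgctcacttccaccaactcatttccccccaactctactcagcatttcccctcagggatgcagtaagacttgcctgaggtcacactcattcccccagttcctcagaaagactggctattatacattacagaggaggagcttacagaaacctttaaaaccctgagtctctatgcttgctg
Stfa2l1, chr16:36156561-36156810, plus strand: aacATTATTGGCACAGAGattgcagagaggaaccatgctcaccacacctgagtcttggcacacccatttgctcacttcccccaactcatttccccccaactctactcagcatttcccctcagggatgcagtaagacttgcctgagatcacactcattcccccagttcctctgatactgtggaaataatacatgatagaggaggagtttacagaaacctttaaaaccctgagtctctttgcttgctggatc
Stfa1, chr16:36276898-36277147, plus strand: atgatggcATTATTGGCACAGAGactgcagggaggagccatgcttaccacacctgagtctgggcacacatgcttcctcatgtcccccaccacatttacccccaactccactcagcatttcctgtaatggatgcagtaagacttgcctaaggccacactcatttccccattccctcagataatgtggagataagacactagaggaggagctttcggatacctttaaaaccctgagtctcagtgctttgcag
Stfa3, chr16:36455393-36455642, minus strand: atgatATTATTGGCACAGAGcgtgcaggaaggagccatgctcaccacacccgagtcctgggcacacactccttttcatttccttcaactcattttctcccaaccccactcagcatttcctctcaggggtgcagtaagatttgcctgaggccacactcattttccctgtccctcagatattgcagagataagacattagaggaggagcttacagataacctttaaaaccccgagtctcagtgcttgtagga
In global alignments the 4 windows were 80.4% to 89.4% identical, with Stfa2 and Stfa2l1 the closest pair.

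Ezh1 (gene 14055, mm10 chromosome 11, 101191115 to 101226450) lay at -1.75 and -1.94 in Ezh1-null oil, against 1.71 and 1.66 in Ezh1-present oil. The groups stood far apart, with a difference of -3.53 ± 0.10 (11.5-fold, adjusted p = 0.00108), and a gene-level value does not show which exons were deleted. Ezh2, the targeted gene of the tamoxifen groups, had values of -0.12 and -0.03 in Ezh1-null oil, against 0.25 and 0.23 in Ezh1-present oil. Its difference of -0.31 ± 0.08 passed narrowly (adjusted p = 0.0492) and did not pass in any of the 8 fits that leave out 1 library.

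Of the 6 PRC2 core genes, Ezh1 and Ezh2 included, 4 were lower and 2 not called, against 12.4% of all rows called lower, 12.5% called higher and 24.9% called in either direction. Suz12, the scaffold that holds the enzyme to the complex, was at -0.41 and -0.25 in Ezh1-null oil and at 0.50 and 0.45 in Ezh1-present oil, a difference of -0.81 ± 0.10 (adjusted p = 0.00668), and it stayed called without any 1 library. The histone-binding subunit Rbbp7 differed by -0.35 ± 0.09 (adjusted p = 0.0481), again with no call in any of the 8 fits that leave out a library. The count of lower core genes was 2 in each fit that leaves out 1 library. Eed, which binds the finished mark (-0.23 ± 0.11) and Rbbp4 (-0.18 ± 0.10) did not pass. Of the 22 genes of Polycomb repressive complex 1, which binds the mark that PRC2 writes, 4 were higher and 6 lower. The corepressor Bcor had the largest fall of these (-1.65 ± 0.11, adjusted p = 0.00257). Leaving out Ezh1-null oil replicate 1 gave 3 lower, and leaving out its replicate 2 or either Ezh1-present oil library gave 1. In the limma fit 0 of the 6 genes for H3K27 demethylases and the Asxl-Bap1 complex were called, with 2 at an unadjusted p under 0.05, which 39.8% of all rows reach.

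**Figure D1:**
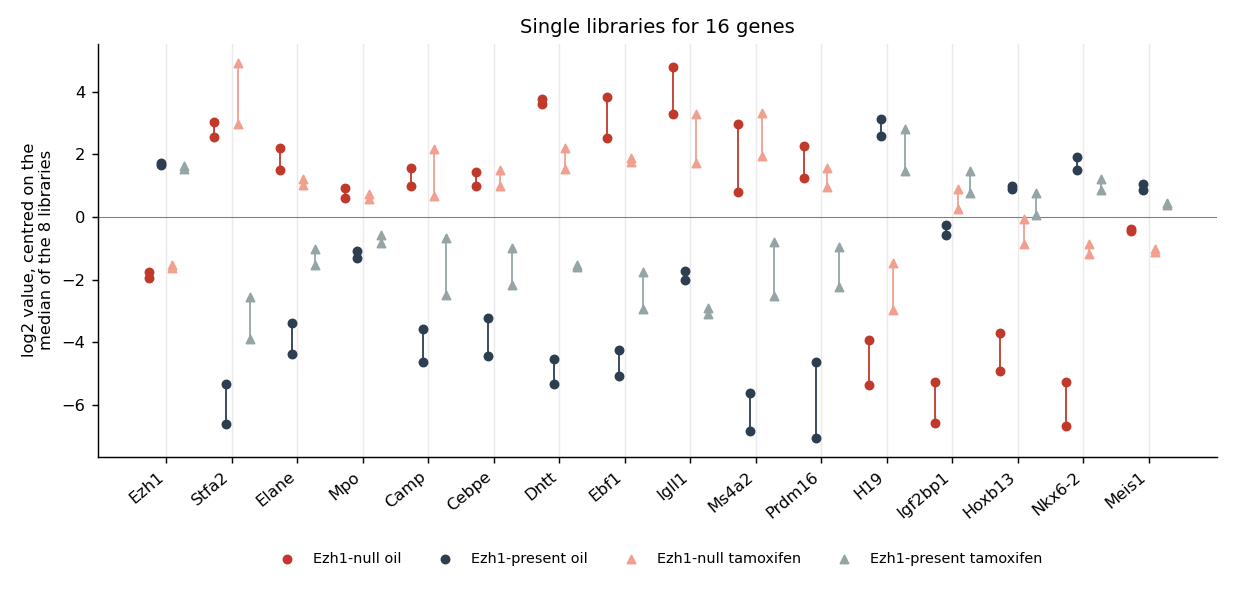
Centred log2 value (vertical axis) of 16 genes in single libraries, with a line joining the 2 libraries of a group (circles oil, triangles tamoxifen). Ezh1-null oil is the higher oil group from Stfa2 to Prdm16 and the lower one for Ezh1 and from H19 to Meis1. All 16 genes were called in oil, and the largest changes were taken only from rows whose oil groups do not overlap. The lack of overlap in the 16 is therefore no separate result, and 65.8% of all rows share it.

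In total 4493 rows were called between the oil groups, 2249 higher and 2244 lower in Ezh1-null oil. The oil groups did not overlap in 65.8% of all rows. The median difference of the calls was 0.95 among the higher and -1.21 among the lower, and 277 lay above 3 and 215 below -3. The count depends on single libraries: it was 2658 without Ezh1-null oil replicate 1, 1925 without its replicate 2, 1707 without Ezh1-present oil replicate 1, 2183 without its replicate 2 and 2531 with only the 4 oil libraries in the fit. A core of 1287 rows (667 higher and 620 lower) was called in the fit of all libraries and in each of the 8 fits that leave out 1.

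Granulocyte genes were higher in Ezh1-null oil. Of 13 primary granule genes, which encode the enzymes that promyelocytes pack into their first granules, 12 were higher and 1, the chaperone gene Calr, was not called (0.27 ± 0.15), with a median difference of 1.98 against -0.04 over all rows. Elane, neutrophil elastase (chromosome 10, 79886312 to 79888216), lay at 1.51 and 2.21 in Ezh1-null oil, against -4.39 and -3.38 in Ezh1-present oil. It was 53.6-fold higher (5.74 ± 0.42, adjusted p = 0.0028). Mpo, myeloperoxidase, was at 0.61 and 0.92 in Ezh1-null oil and at -1.31 and -1.10 in Ezh1-present oil, a rise of 1.97 ± 0.17 (adjusted p = 0.00352). Ms4a3, a membrane protein of granulocyte and monocyte progenitors, rose most of the list (6.55 ± 0.76, adjusted p = 0.00604), and the proteinase Prtn3 rose by 1.86 ± 0.20. These 4 genes stayed called without any 1 library. The list counted 9 to 12 higher members over the 16 alternative settings.

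Genes of mature neutrophils were higher as well. Of 19 measured, 13 rose, 6 were not called and all 19 had a positive difference, against 45.6% of all rows, with a median of 4.44. The list includes the stefin A copies described below, which may share reads, so its members are not all separate and the count and median lean on that cluster. The antimicrobial peptide gene Camp lay at 0.98 and 1.58 in Ezh1-null oil, against -4.64 and -3.57 in Ezh1-present oil (5.38 ± 0.82, adjusted p = 0.0113). The calcium-binding alarmins S100a8 (4.86 ± 0.72) and S100a9 (4.79 ± 0.72) rose beside it, each called in 6 of the 8 fits that leave out a library. The surface gene Cd177 (3.36 ± 0.49) and the lysozyme gene Lyz2 (1.44 ± 0.34) were among the 13. The 6 not called were Mmp9 (2.80 ± 0.76), Lcn2 (2.32 ± 0.71), Padi4 (2.20 ± 0.69), Mmp8 (1.41 ± 0.91), Cxcr2 (1.09 ± 0.40) and Ly6g (0.37 ± 0.84). The count of higher genes was 10 without Ezh1-null oil replicate 1, 3 without its replicate 2, 3 without Ezh1-present oil replicate 1 and 9 without its replicate 2.

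Stfa2 and Stfa2l1, whose windows are shown above, had the largest differences of the list. Stfa2 (chromosome 16, 36403946 to 36408363) was at 2.55 and 3.03 in Ezh1-null oil, against -5.34 and -6.62 in Ezh1-present oil, a rise of 8.77 ± 0.85 (adjusted p = 0.00409). Stfa2l1 rose by 8.23 ± 1.00, Stfa3 by 6.60 ± 0.93 and Stfa1 by 4.81 ± 0.69. BC100530 rose by 7.25 ± 0.69, Gm5483 by 6.69 ± 0.87, and BC117090, at the floor in both Ezh1-present oil libraries, was at least 22.9-fold higher, a bound that sets those libraries to 3 read pairs each. Reads may be shared between near-identical copies and how they were assigned is not given in the sources used here, so the value of any single copy is uncertain.

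Transcription factors of the same lineage moved in both directions. Cebpe, which drives the formation of secondary granules, lay at 1.00 and 1.44 in Ezh1-null oil and at -4.45 and -3.23 in Ezh1-present oil (5.06 ± 0.57, adjusted p = 0.00568). Cebpa, the factor that commits progenitors to granulocytes, rose by 1.18 ± 0.14 (adjusted p = 0.0066), and Gfi1, a repressor needed for neutrophils, by 0.72 ± 0.16 (adjusted p = 0.0328). Klf4, a factor of inflammatory monocytes, rose by 2.32 ± 0.20. The macrophage factor Maf fell (-2.54 ± 0.40, adjusted p = 0.0121). Of the 14 factors listed, 5 were higher and 4 lower, and the lower count was 0 without any one of the 4 oil libraries.

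Monocyte and macrophage genes were divided, with 6 of 27 higher and 9 lower. Ly6c2, a surface marker of inflammatory monocytes, was at 0.76 and 0.62 in Ezh1-null oil, against -1.52 and -1.35 in Ezh1-present oil (2.13 ± 0.11, adjusted p = 0.00206). The low-affinity Fc receptor Fcgr3 rose by 3.43 ± 0.22 and the chemokine receptor Ccr2 by 1.14 ± 0.11, all 3 called without any 1 library. The other 3 higher members were Clec4a2 (4.48 ± 0.59), the macrophage pore protein Mpeg1 (1.90 ± 0.11) and the chemokine receptor Cx3cr1 (1.65 ± 0.29). The 9 lower members were Apoe (-2.02 ± 0.36), the complement genes C1qb (-1.53 ± 0.30), C1qa (-1.25 ± 0.32) and C1qc (-1.22 ± 0.28), Csf1r, the receptor for macrophage colony-stimulating factor (-1.32 ± 0.18, adjusted p = 0.00874), Ms4a6b (-1.14 ± 0.14), the mannose receptor Mrc1 (-0.94 ± 0.17), Cd68 (-0.47 ± 0.10) and Ms4a6c (-0.38 ± 0.09). Quantile normalization gave 2 lower and 6 higher, and the lower count was 3 and 5 without Ezh1-null oil replicate 1 and 2, and 1 and 2 without Ezh1-present oil replicate 1 and 2.

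**Figure D2:**
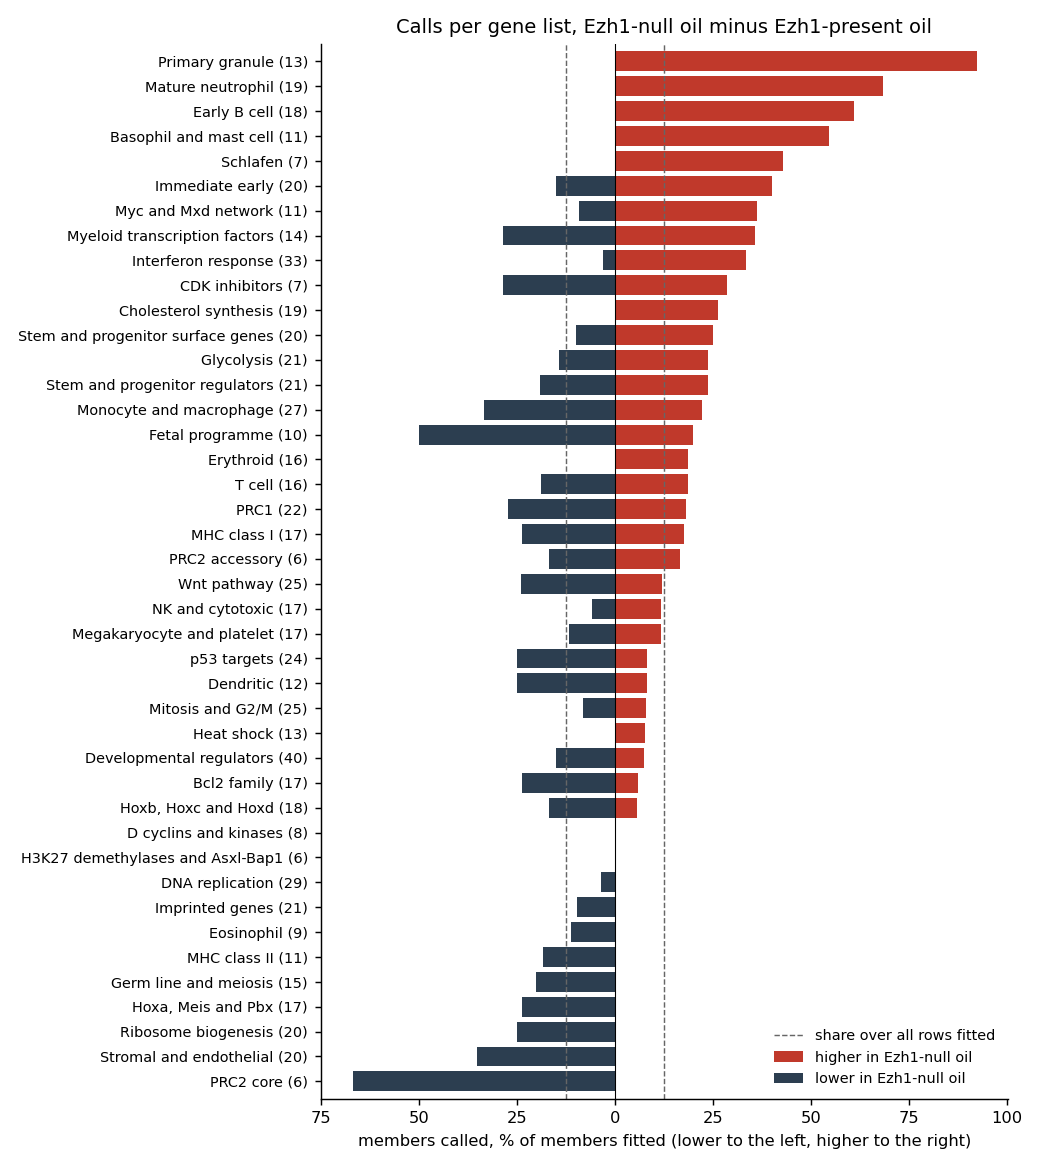
Share of the members of a list called higher (right) or lower (left) in Ezh1-null oil minus Ezh1-present oil, in percent of the members fitted (their number in parentheses), for lists with at least 6 members fitted, with dashed lines at the shares over all rows, 12.5% higher and 12.4% lower. Primary granule genes reach furthest to the right, with 12 of 13, and PRC2 core genes furthest to the left, with 4 of 6. Those 4 include Ezh1, the gene removed by design, and Ezh2 and Rbbp7, which passed narrowly (limma adjusted p = 0.0492 and 0.0481).

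Genes of early B cells formed another group of large rises. Of 18 measured, 11 were higher and 7 not called, with a median of 3.09. Dntt, the terminal transferase that adds bases at antigen receptor junctions (chromosome 19, 41029275 to 41059525) and not itself on the list, lay at 3.61 and 3.77 in Ezh1-null oil, against -5.35 and -4.54 in Ezh1-present oil, a rise of 8.63 ± 0.34 (adjusted p = 0.00167). Ebf1, the factor that specifies B cell progenitors, was at 3.82 and 2.53 in Ezh1-null oil, against -4.25 and -5.09 in Ezh1-present oil (7.85 ± 0.60, adjusted p = 0.0029). Rag1, the recombinase of antigen receptor genes, lay at the floor in both Ezh1-present oil libraries and was at least 262-fold higher, and Pax5, the factor of B cell identity, was at least 24.8-fold higher. The surrogate light chain genes Vpreb1 (6.82 ± 0.42) and Igll1 (5.92 ± 0.68) rose too, and these 6 genes stayed called without any 1 library.

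Genes that B cells keep at later stages were called in part. Cd79a, a signalling chain of the B cell receptor, rose (3.28 ± 0.52) and was called in 5 of the 8 fits that leave out a library. The differences that did not pass were -0.08 ± 0.16 for Cd79b, -0.67 ± 0.43 for Cd22 and -1.02 ± 0.85 for Ms4a1, which encodes CD20. The count of higher early B cell genes was 8 without Ezh1-null oil replicate 1, 8 without its replicate 2, 6 without Ezh1-present oil replicate 1 and 6 without its replicate 2. In bulk RNA, more cells of a type and more RNA per cell cannot be told apart. The leukaemia cells are labelled c-kit+, and Kit itself was higher, at 0.53 and 0.64 in Ezh1-null oil against -0.64 and -0.71 in Ezh1-present oil (1.26 ± 0.17, adjusted p = 0.00848). Its list of 20 stem and progenitor surface genes was divided, with 5 higher, 2 lower and 13 not called. Flt3 lay the other way, at -0.08 and -1.34 in Ezh1-null oil against 0.99 and 0.98 in Ezh1-present oil. Cd34 values overlapped, at -0.01 and -0.88 against -1.02 and -0.47.

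Basophil and mast cell genes gave 6 higher and 5 not called of 11. Ms4a2, the beta chain of the high-affinity IgE receptor, lay at 0.80 and 2.97 in Ezh1-null oil, against -6.83 and -5.62 in Ezh1-present oil (8.11 ± 1.03, adjusted p = 0.00728). Its replicates in Ezh1-null oil differed by more than those of most genes here. Oil groups without overlap were a condition for the largest rises, so their separation for Ms4a2 is no separate result. Prss34, a basophil protease, rose by 7.26 ± 0.72, and Fcer1a, the alpha chain of that receptor, was at least 5.62-fold higher. Hdc, which makes histamine, differed by -0.58 ± 0.22 and Mcpt8, a defining basophil protease, by 0.50 ± 0.17, neither past the threshold. The median of the list was 2.91, or 0.51 where genes with a group at the floor count at their bound, and 3 members were higher when Ezh1-null oil replicate 2 or either Ezh1-present oil library was left out.

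Erythroid genes leaned the same way with few calls. All 16 had a positive difference and the median was 2.22, but 3 were called, among them the factor Gata1 (4.09 ± 1.09, adjusted p = 0.0491) and the transferrin receptor Tfrc (0.94 ± 0.15, adjusted p = 0.0135). The share called was 18.8%, against 24.9% of all rows called in either direction and 12.5% called higher. Gata1 was called in 2 of the 8 fits that leave out a library, neither of which drops an oil library, and Tfrc in 5. Leaving out Ezh1-null oil replicate 1 gave 1 called member, leaving out any one of the other 3 oil libraries gave 0, leaving out either Ezh1-null tamoxifen library gave 1 and leaving out either Ezh1-present tamoxifen library gave 7. The median of the list over libraries was -0.01 and 1.33 in Ezh1-null oil and -2.65 and -1.09 in Ezh1-present oil. After tamoxifen the list medians were 0.22 and -0.12 in Ezh1-null libraries, against -0.13 and 2.30 in Ezh1-present libraries. The median difference there was -0.98, a sign that rests on Ezh1-present tamoxifen replicate 2, since the other 3 libraries lay close together, with 0 of the 16 called in the limma fit and 0 at an unadjusted p under 0.05, a level that 32.3% of all rows reach there.

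Genes of stroma and endothelium ran the other way, with 7 of 20 lower, 13 not called and a median of -1.39. Pdgfrb, the platelet-derived growth factor receptor of pericytes and fibroblasts, lay at -1.14 and -1.99 in Ezh1-null oil, against 0.76 and 0.87 in Ezh1-present oil (-2.39 ± 0.31, adjusted p = 0.00744). Cdh5, the cadherin of endothelial junctions, differed by -1.39 ± 0.26 (adjusted p = 0.0189) and the basement membrane collagen Col4a1 by -1.79 ± 0.33. The counts were 3 lower without either Ezh1-null oil library, 2 without Ezh1-present oil replicate 1 and 4 without its replicate 2. T cell genes (3 higher and 3 lower of 16), NK genes (2 and 1 of 17) and platelet genes (2 and 2 of 17) were called in both directions. The shares called were 37.5%, 17.6% and 23.5%, against 24.9% of all rows, so the NK and platelet counts do not exceed the share over all rows. When one oil library was left out, T cell genes gave 0 to 2 higher and 0 to 2 lower, NK genes 1 to 2 higher and 0 to 1 lower, and platelet genes 0 to 1 higher and 0 lower, with no platelet call left unless the library was Ezh1-present oil replicate 2. Summed marker levels cannot be given on centred values, of the 26 defining markers Cd3e alone had a library at the floor, and the part of other cell types in the results was not tested.

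**Figure D3:**
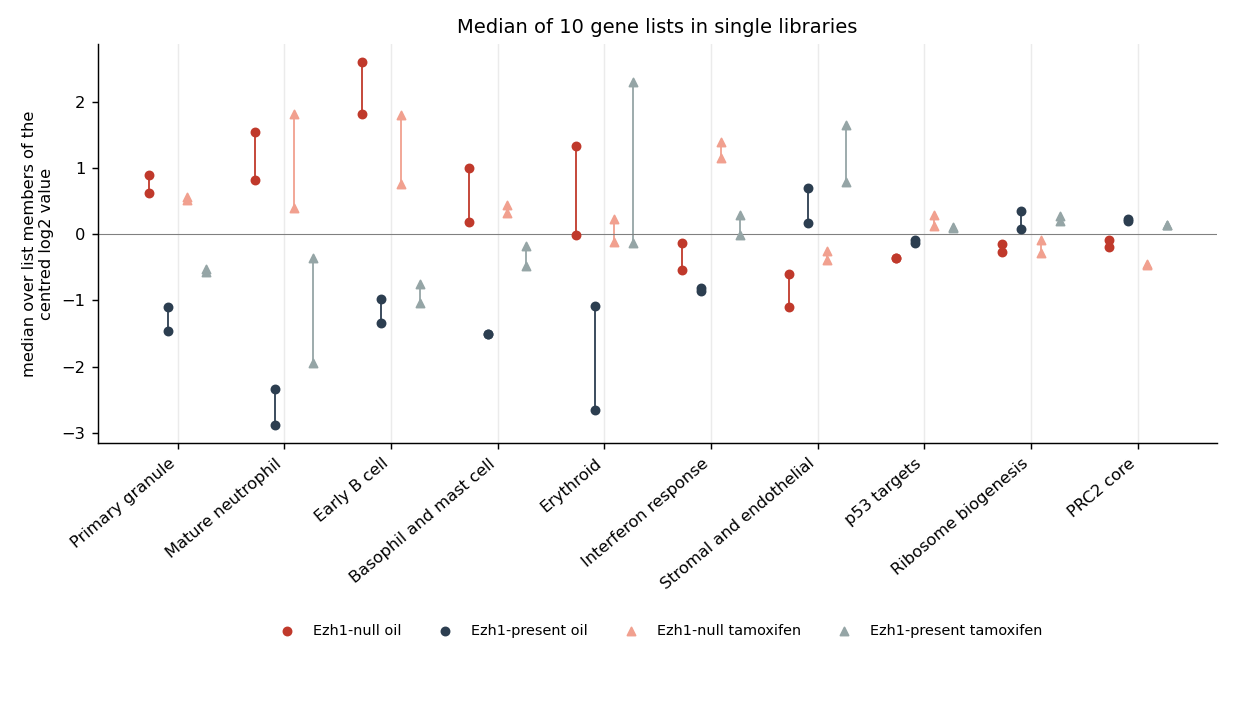
Median over the members of 10 gene lists of the centred log2 value (vertical axis) in single libraries, with a line joining the 2 libraries of a group (circles oil, triangles tamoxifen). Within oil, Ezh1-null libraries lie above Ezh1-present ones for the first 6 lists and below them for the last 4, with primary granule medians of 0.63 and 0.90 in Ezh1-null oil, against -1.47 and -1.10 in Ezh1-present oil.

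Regulators of blood stem cells had large differences in few genes. Prdm16, a factor needed to maintain blood stem cells (chromosome 4, 154316125 to 154636873), lay at 1.26 and 2.27 in Ezh1-null oil, against -4.63 and -7.05 in Ezh1-present oil (7.60 ± 0.92, adjusted p = 0.0066). Gata2, a factor of stem and mast cells (5.45 ± 0.95), and Hlf (3.57 ± 0.59) rose as well, each called in 5 of the 8 fits that leave out a library. Of the 21 regulators, 5 were higher and 4 lower, and the differences of the lower ones ran from -0.42 ± 0.08 for Ikzf1 to -1.44 ± 0.10 for Nkx2-3. Without Ezh1-null oil replicate 2 or either Ezh1-present oil library the counts were 2 higher and 1 lower, and without Ezh1-null oil replicate 1 they were 4 higher and 2 lower. Meis1, the partner of Hoxa9 in myeloid leukaemia, was at -0.44 and -0.37 in Ezh1-null oil and at 1.05 and 0.85 in Ezh1-present oil, a difference of -1.36 ± 0.11 (adjusted p = 0.00294). Hoxa9 itself differed by 0.06 ± 0.15 and was not called. Hoxa13 was called lower with both Ezh1-null oil libraries at the floor, and its bound of 0.928-fold does not show a fall. Over the Hoxa, Meis and Pbx list 23.5% were called, against 24.9% of all rows called in either direction and 12.4% called lower. Of the 17 Hoxa, Meis and Pbx genes, 4 were lower and 13 not called, and the lower count was 2 when either Ezh1-null oil replicate 2 or Ezh1-present oil replicate 1 was left out.

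The 10 largest falls with no oil library at the floor included Nkx6-2 and H19. Nkx6-2, a homeobox gene of the nervous system, lay at -5.25 and -6.68 in Ezh1-null oil, against 1.92 and 1.5 in Ezh1-present oil (-7.67 ± 0.49, adjusted p = 0.00239). H19, an imprinted noncoding RNA of the fetus, was at -3.93 and -5.37 in Ezh1-null oil, against 2.59 and 3.11 in Ezh1-present oil (-7.50 ± 0.78, adjusted p = 0.00487). Its neighbour Igf2, a fetal growth factor, was lower as well (-3.54 ± 0.33, adjusted p = 0.00372). Scara3 (-5.94 ± 0.64), the cartilage gene Matn1 (-5.44 ± 0.58) and Ncmap (-5.25 ± 0.48) were also among these 10. Of 10 fetal programme genes, 5 were lower and 2 higher, and the higher ones were Lin28a (1.18 ± 0.14, adjusted p = 0.00637) and Hmga2 (2.83 ± 0.76, adjusted p = 0.0499), Hmga2 being called in 2 of the 8 fits that leave out a library.

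A cluster of falls lay near Hoxb13 on chromosome 11. Igf2bp1, an RNA-binding protein of fetal cells (95957164 to 96005944), was at -5.27 and -6.58 in Ezh1-null oil, against -0.57 and -0.25 in Ezh1-present oil (-5.52 ± 0.51, adjusted p = 0.00374). Ttll6, a tubulin-modifying enzyme, was lower (-5.27 ± 0.42), as was Hoxb13, the last gene of the Hoxb cluster (96194361 to 96196599; -5.24 ± 0.50), all 3 called without any 1 library. The 4 other fitted genes of the interval, Snf8 (-0.22 ± 0.11), Ube2z (-0.16 ± 0.09), Atp5g1 (-0.17 ± 0.18) and Calcoco2 (-0.36 ± 0.77), were not called. This interval was chosen after its values were seen. Hoxc4 and Hoxc5, on chromosome 15, were also called lower, with both Ezh1-null oil libraries at the floor. Their bounds were 1.34-fold and 0.778-fold, and a bound under 1 does not show a fall. Over the Hoxb, Hoxc and Hoxd list 22.2% of the genes fitted were called, which does not exceed the 24.9% of all rows. Within the Hoxb cluster Hoxb3 was higher (1.17 ± 0.17, adjusted p = 0.01), and of the 18 Hoxb, Hoxc and Hoxd genes 1 was higher and 3 were lower, with 0 higher when Ezh1-null oil replicate 2 or Ezh1-present oil replicate 1 was left out.

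Interferon response genes were higher in part, with 11 of 33 higher, 1 lower and a median of 0.68. Rtp4, a chaperone induced by interferon, lay at 0.13 and -0.85 in Ezh1-null oil, against -3.74 and -3.59 in Ezh1-present oil (3.30 ± 0.40, adjusted p = 0.00663). Oas3, a sensor of double-stranded RNA, was at 0.05 and -0.05 in Ezh1-null oil, against -1.51 and -1.23 in Ezh1-present oil (1.37 ± 0.17, adjusted p = 0.00659). The ubiquitin-like modifier Isg15 rose by 1.3 ± 0.33 (adjusted p = 0.0453) and Mx1 was lower (-1.31 ± 0.31, adjusted p = 0.0358). Rtp4 and Oas3 stayed called without any 1 library, Isg15 in none of the 8 such fits. The higher count was 5 without Ezh1-null oil replicate 1, 4 without its replicate 2, 5 without Ezh1-present oil replicate 1 and 3 without its replicate 2. Several genes most typical of a strong response did not pass, with 0.33 ± 0.20 for Rsad2, 0.44 ± 0.33 for Irf7 and 0.04 ± 0.28 for Oasl2.

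The promoter windows of Oas3 and Isg15 are shown with capitals on matches to the core of the interferon-stimulated response element (GAAA, any 2 bases, GAAA), searched on both strands with overlaps allowed. Both windows are the 250 bases before the RefSeq start in GRCm38.p6.
Oas3, chr5:120777660-120777909, minus strand: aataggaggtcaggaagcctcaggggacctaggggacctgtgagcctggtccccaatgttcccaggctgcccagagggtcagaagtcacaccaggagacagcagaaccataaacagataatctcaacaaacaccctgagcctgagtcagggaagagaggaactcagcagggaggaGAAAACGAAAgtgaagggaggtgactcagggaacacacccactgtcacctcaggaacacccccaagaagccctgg
Isg15, chr4:156200819-156201068, minus strand: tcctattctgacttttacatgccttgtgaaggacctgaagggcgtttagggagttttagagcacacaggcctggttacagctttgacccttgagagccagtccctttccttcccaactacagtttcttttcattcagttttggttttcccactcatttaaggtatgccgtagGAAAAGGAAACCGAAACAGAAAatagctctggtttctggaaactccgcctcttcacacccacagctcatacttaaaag
Of all 27025 genes with such a window, 3.46% held a match. Among interferon genes with a window, a match stood in 3 of the 7 that were higher and in 9 of the 16 others. Oas3 held 1 match and Isg15 3 overlapping ones. Further searches found the palindrome that Ebf1 binds (TCCC, any 2 bases, GGGA) in 0 of 10 higher early B cell genes (0.914% of all genes), and its shorter form CCCNNGGGA in 0 of the same 10 (6.45%). TTNNGNAA, a loose C/EBP pattern, stood in 5 of 9 higher primary granule genes (40.3% of all genes), TTGCNNAA in 2 of the 9 (10.8%), and TTGCGNAA in 0 of 12 higher mature neutrophil genes (0.762%).

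Cell cycle inhibitors were divided. Cdkn2c, which encodes Ink4c, lay at 0.39 and 0.22 in Ezh1-null oil, against -0.92 and -1.38 in Ezh1-present oil (1.46 ± 0.20, adjusted p = 0.00893). Cdkn2d rose by 0.81 ± 0.20 (adjusted p = 0.0397), while Cdkn1a (-0.72 ± 0.17, adjusted p = 0.0362) and Cdkn1b (-0.65 ± 0.14, adjusted p = 0.031) fell. Of these 4, Cdkn2c stayed called without any 1 library. Cdkn2a, a classic PRC2 target that encodes Ink4a and Arf, was at -1.19 and -1.44 in Ezh1-null oil and at -0.97 and -1.26 in Ezh1-present oil, and the ranges overlapped (-0.20 ± 0.20, adjusted p = 0.515). After tamoxifen Cdkn2a was higher in Ezh1-null cells (2.01, adjusted p = 0.0111), and the test between the 2 differences missed the threshold (adjusted p = 0.0663). In the limma fit 0 of the 8 D cyclin, kinase and Rb family genes were called in oil, with 1 at an unadjusted p under 0.05. Of 29 DNA replication genes 1 was lower and 28 were not called, while mitosis genes gave 2 higher and 2 lower of 25. The shares called were 3.45% and 16%, both below the 24.9% of all rows. Leaving out one oil library gave 0 replication calls, and 0 to 1 mitosis genes in each direction.

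Targets of p53 gave 2 higher and 6 lower of 24. Pmaip1, which encodes the death protein Noxa, lay at -1.19 and -1.06 in Ezh1-null oil, against 0.43 and 0.62 in Ezh1-present oil (-1.65 ± 0.10, adjusted p = 0.00239). Plk2 (-1.49 ± 0.16) and Bbc3, which encodes Puma (-0.76 ± 0.10, adjusted p = 0.00778), were lower too, and these 3 stayed called without any 1 library. Dropping Ezh1-null oil replicate 1 gave 1 higher, and dropping any one of the other 3 oil libraries gave 0. The lower count was 3 without Ezh1-present oil replicate 1 and 4 or 5 without any one of the other 3 oil libraries. Of 20 ribosome biogenesis genes 5 were lower and 15 not called, with a median of -0.45. Their share called was 25%, against 24.9% of all rows called in either direction and 12.4% called lower. Their lower count was 2 without Ezh1-present oil replicate 1 and 0 without any one of the other 3 oil libraries, and 3 without any one of the tamoxifen libraries. Immediate early genes, which answer growth signals and handling of cells within minutes, gave 8 higher and 3 lower of 20. Fos rose by 1.55 ± 0.14 (adjusted p = 0.00353) and Jun by 1.41 ± 0.16 (adjusted p = 0.00568), while Egr2 (-2.24 ± 0.42) and Atf3 (-2.18 ± 0.35) fell. Without any one of the 4 oil libraries 4 were higher, and the lower count was 1 without Ezh1-present oil replicate 2 and 0 without any one of the other 3. The time from cell collection to RNA is not given, and its part in these genes was not tested.

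Genes next to the targeted locus were called in both directions. Within 0.2 Mb of Ezh1, 10 of 25 rows were called (40%, 6 higher, 4 lower), within 5 Mb 66 of 226 (29.2%) and over the whole of chromosome 11 23.5%. Ramp2, a receptor-modifying protein that starts 19.9 kb from Ezh1, was at the floor in both Ezh1-null oil libraries and at least 2.38-fold lower. On the other side Mlx, a partner of Mondo transcription factors, rose by 1.28 ± 0.12 (adjusted p = 0.00371) and the lysosomal enzyme Naglu by 1.45 ± 0.11, both called without any 1 library. The windows of 0.2 Mb and the whole chromosome were chosen after values were seen.

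Chromosome 15 had the most negative median difference of chromosomes 1 to 19 and X, a pattern noticed in the values and not tested. Over its 612 rows with every library above the floor, the median difference was -0.34, 73.5% of the differences lay below 0, and 194 rows were lower and 51 higher (40% called). Over the 19 others the median ran from -0.07 to 0.05 and the share called from 24.0% to 29.7%. The median value of the chromosome was -0.15 and -0.14 in Ezh1-null oil, against 0.11 and 0.15 in Ezh1-present oil. After tamoxifen the medians were -0.02 and -0.10 in Ezh1-null and 0.14 and 0.05 in Ezh1-present libraries, a difference of -0.18. All 6 bins of 20 Mb along the chromosome had a negative median in oil, from -0.63 to -0.14. Myc, which lies there, differed by 0.29 and was not called (adjusted p = 0.426). Copy number was not measured.

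**Figure D4:**
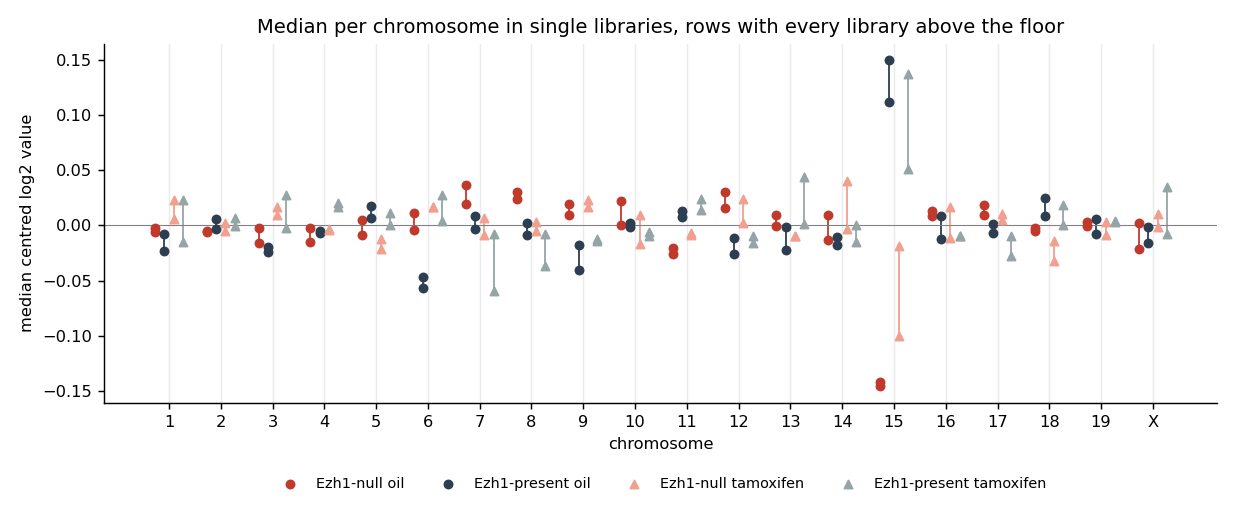
Median centred log2 value per chromosome (vertical axis) in single libraries over rows with every library above the floor, with a line joining the 2 libraries of a group (circles oil, triangles tamoxifen). On chromosome 15, Ezh1-null oil lies at -0.15 and -0.14 and Ezh1-present oil at 0.11 and 0.15, while on the other 19 chromosomes the library medians stay between -0.06 and 0.04.

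The 4 tamoxifen libraries, labelled Ezh2-/-, give the Ezh1 genotype difference in libraries that the oil comparison does not use. The 2 comparisons share one fitted spread and may share leukaemias. At gene level Ezh2 lay at -0.53 and -0.56 in Ezh1-null tamoxifen, against 0.09 and 0.03 in Ezh1-present tamoxifen. That difference was called (-0.60, limma adjusted p = 0.02), so Ezh2 RNA was not equal between the tamoxifen groups. A gene-level value does not show whether the floxed exons were deleted. In tamoxifen 2204 rows were called (12.2%), 1222 higher (6.77%) and 982 lower (5.44%). The count was 337 and 418 without Ezh1-null tamoxifen replicate 1 and 2, and 620 and 636 without Ezh1-present tamoxifen replicate 1 and 2. Dropping one Ezh1-null oil library gave 1323 and dropping one Ezh1-present oil library gave 1101, since these enter through the fitted spread. Of the 4493 oil calls, 90.9% had the same sign after tamoxifen, against 71.6% of all rows, and 1560 were called there with the same sign (870 higher, 690 lower), with 37 called with the opposite sign. Rows called in both made up 35.5% of the oil calls and 72.5% of the tamoxifen calls. Over the 15517 rows with every library above the floor, Pearson's r across genes was 0.645, and genes are not independent replicates.

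The members described above differ in how far the 2 differences resemble each other. Stfa2 had a tamoxifen difference of 7.16 and Stfa1 one of 6.55, Igll1 one of 5.53, Meis1 one of -1.47 and Suz12 one of -0.84, all called. For Elane it was 2.40, beside 5.74 in oil, and for Igf2bp1 -0.55, beside -5.52 in oil, the last not called after tamoxifen. The test of the difference itself called 86 rows (0.476%; 2697 or 14.9% at an unadjusted p under 0.05), 28 higher (0.155%) and 58 lower (0.321%) in oil than after tamoxifen, and 31 of these had every library above the floor. Of those 31, 23 were lower in the interaction, 8 were higher, and 22 were lower in oil and called there. Among the lower ones, Mlxipl (-4.06 in oil and -0.60 after tamoxifen, interaction adjusted p = 0.0139) and Bcam (-4.46 and -1.35, interaction adjusted p = 0.0373) had smaller differences after tamoxifen, both chosen after their values were seen. Dntt had the largest difference of the 31, with 8.63 in oil and 3.42 after tamoxifen (interaction 5.21, adjusted p = 0.0373). Igf2bp1 (adjusted p = 0.0784) and Hoxb13 (adjusted p = 0.099) missed the threshold of that test. With rows kept only where every library is above the floor the count was 6. It was 24 and 48 without Ezh1-null oil replicate 1 and 2, 17 without Ezh1-present oil replicate 1, and 41 and 34 without Ezh1-null tamoxifen replicate 1 and 2.

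**Figure D5:**
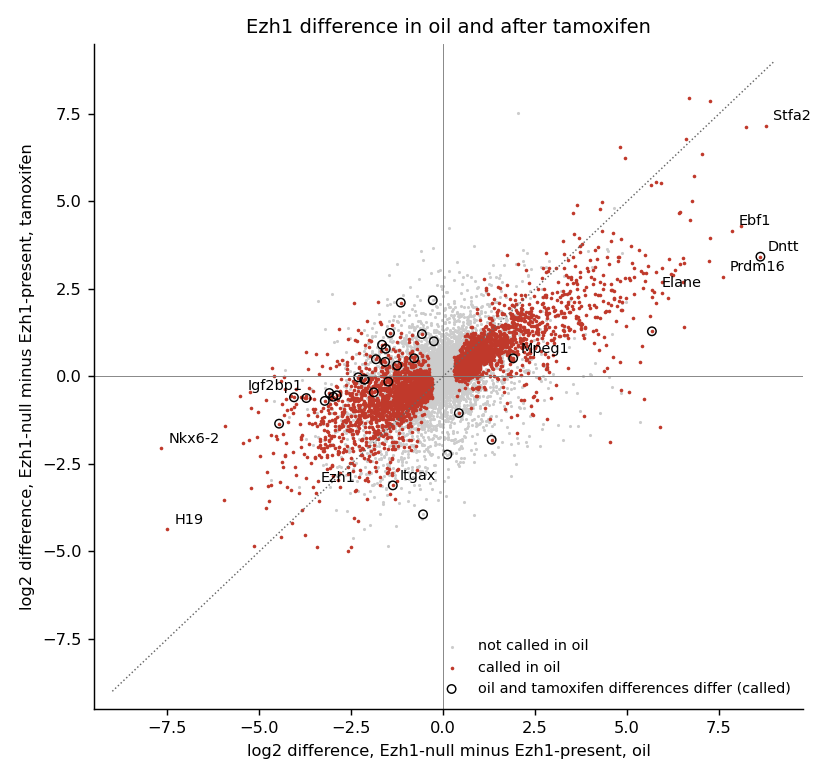
Log2 difference Ezh1-null minus Ezh1-present in oil (horizontal axis) and after tamoxifen (vertical axis) for the 15517 rows with every library above the floor, with red points called in oil and open circles called in the test of the difference between the 2, and a dotted line at equal differences. Among the large rises, Stfa2 lies nearer to that line, while Dntt, Ebf1 and Prdm16 lie below it with a smaller difference after tamoxifen. Dntt was called in the test of the difference, whereas Ebf1 and Prdm16 were not (limma adjusted p = 0.17 and 0.214).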

How the data were processed

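The study measured RNA by Illumina sequencing in 8 mouse libraries, 2 in each of 4 groups. The deposited table holds log2 normalized values centred on the median of each row, with a floor at a normalized value of 1, as read from the values. The build is mm10 per the labels, while neither aligner nor counting method is given in the sources used here. No unnormalized read numbers were used, so no count model was fitted.

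The 18051 rows with 2 or more libraries above floor were fitted with limma 3.58.1 in R 4.3.3 over all 8 libraries with 4 group coefficients. P-values were Benjamini-Hochberg adjusted, and calls taken under 0.05. Rows with tied floor values have an understated spread. Bounds set a group at the floor to 3 read pairs per library, chosen after low values proved mostly even, and cover counting error only. Low values came out as whole reads, within 0.01, in 67.4% to 73.8% of cases, too few to recover reads.

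Named genes are Ezh1 and Ezh2, the largest changes, changes in both treatments and in the test between them, calls near Ezh1, and the members of each list with the smallest p. Placeholder symbols were left out, except in the stefin A paragraph and the flagged results. Further list members were named after their values were seen. The members and lists were chosen with earlier results of these data known. The bins and windows of chromosomes 11 and 15, the promoter windows and the motifs were also chosen after values were seen. RefSeq windows (GRCm38.p6) were aligned with Biopython 1.88. The script was tested on simulated data. Alternatives were equal medians, quantile normalization, other floor filters, only the oil libraries, a replicate block, robust moderation and leaving out each library.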

Additional observations from a re-analysis of the deposited data

Results flagged for a closer look

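The oil and tamoxifen differences of 12 named genes differed in the test of the difference itself, given here as the oil log2 difference minus the tamoxifen one, with limma's adjusted p. For Dntt it was 5.21 (adjusted p = 0.0373), for Rnase10 4.39 (adjusted p = 0.05) and for Mpeg1, a pore-forming protein of macrophages, 1.39 (adjusted p = 0.0475), and these 3 genes were higher in Ezh1-null oil and had smaller positive differences after tamoxifen. Itgax, the integrin of dendritic cells, was lower in both treatments and differed by 1.74 (adjusted p = 0.041).

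The other 8 have at least 1 library at the floor, where the spread is understated. The value was 6.16 for A230087F16Rik (adjusted p = 0.00654), 3.76 for Il4 (adjusted p = 0.0388) and 3.76 for Gpr44 (adjusted p = 0.0373). It was -4.90 for Col13a1 (adjusted p = 0.0105), -4.56 for Mir466i (adjusted p = 0.0461), -4.51 for Gm5415 (adjusted p = 0.00144), -4.46 for Gm5077 (adjusted p = 0.0105) and -4.44 for Chn1 (adjusted p = 0.041). Col13a1, Mir466i, Gm5415 and Gm5077 were lower in Ezh1-null oil and higher in Ezh1-null tamoxifen, both past the threshold.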

How the results depend on the processing

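The oil count of 4493 became 2531 with only the 4 oil libraries, and ran from 1707 to 4004 when 1 library was left out. Quantile normalization gave 3486, 57.6% of them higher, against 50.1% in the fit reported. The tamoxifen count of 2204 ran from 337 to 1323 when 1 library was left out, every omission moving it by over 1.5 times. The interaction count of 86 became 37 under quantile normalization (45.9% higher, against 32.6%), 14 with at least 4 libraries above the floor, 6 with every library above it, and ran from 17 to 98 when 1 library was left out. The Ezh1 difference ran from -3.63 to -3.43 when 1 library was left out. The cause of these shifts was not tested.

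The labels do not say whether a replicate number marks a shared animal, litter or day. The correlation of same-numbered deviations was 0.0451 between the oil groups and -0.0908 to 0.124 over all pairs of groups. With 2 libraries a group, such correlations across genes cannot decide whether the samples were paired. With a replicate block the counts were 3749 in oil, 1179 after tamoxifen and 5 in the interaction.

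Of the single-gene results over all alternatives, 3230 kept direction and side of the threshold, 640 kept the direction and missed the threshold, 3 newly passed it and 0 reversed. Depth limits genes near the floor, and Ezh1-null oil was the shallowest group.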

Other observations

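Genes of glycolysis moved in both directions, with 5 higher and 3 lower of 21. Ldhb, a lactate dehydrogenase subunit, lay at 1.18 and 1.40 in Ezh1-null oil, against -1.56 and -2.35 in Ezh1-present oil (3.25 ± 0.27, adjusted p = 0.00338). Gpi1, glucose-6-phosphate isomerase, was higher (1.16 ± 0.13, adjusted p = 0.00557), and Eno2, the neuronal enolase, was lower (-4.39 ± 0.51, adjusted p = 0.00601), all 3 called without any 1 library. The higher count was 2 without Ezh1-present oil replicate 1 and 3 when any one of the other 3 oil libraries was left out, and the lower count was 2 when Ezh1-null oil replicate 2 or either Ezh1-present oil library was left out. Of the 11 genes of the Myc and Mxd network, 4 were higher and 1 lower. Leaving out Ezh1-null oil replicate 2 or Ezh1-present oil replicate 1 gave 2 higher, and leaving out any one oil library, or either Ezh1-null tamoxifen library, gave 0 lower. The Max partner Mxi1, a Myc antagonist, was at 0.76 and 1.18 in Ezh1-null oil, against -1.44 and -1.35 in Ezh1-present oil (2.37 ± 0.22, adjusted p = 0.00372).

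Of the 25 Wnt pathway genes, 3 were higher and 6 lower. Leaving out any one oil library gave 1 higher, and the lower count was 3 without Ezh1-null oil replicate 2 and 4 or 5 when one of the others was left out. Leaving out either Ezh1-present tamoxifen library gave 5 higher. Lgr5, a receptor for R-spondins, was higher (2.39 ± 0.32, adjusted p = 0.008), whereas the Wnt receptor Fzd2 (-3.35 ± 0.19, adjusted p = 0.00215) and the pathway inhibitor Nkd1 (-2.39 ± 0.28, adjusted p = 0.00611) were lower. Of the 7 Schlafen genes, which regulate growth of immune cells, 3 were higher, Slfn1 (2.80 ± 0.51), Slfn4 (2.72 ± 0.43) and Slfn2 (1.31 ± 0.23). Leaving out Ezh1-null oil replicate 1 gave 2 higher, and leaving out any one of the other 3 oil libraries gave 0. Nkg7, a granule protein of cytotoxic cells, lay at 0.32 and 0.52 in Ezh1-null oil, against -5.0 and -3.84 in Ezh1-present oil (4.84 ± 0.57, adjusted p = 0.00631).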
